A study of Rattus norvegicus with 30 samples.

Results

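The genes described here are 35 genes of striated muscle, a tissue of the outer muscle coat, followed in arrays of rat oesophageal epithelium. They were taken as a list of textbook skeletal muscle genes, chosen with earlier results of these data known. Each gene was read from its probe set with the highest mean. A probe set named by 1 gene symbol was found for 34 of the 35, out of 14217 genes measured in all; Mylpf had none here. The measured genes fall into 10 of fast fibres, 8 of slow fibres, 4 of calcium handling, 8 of the sarcomere shared by all fibres, and 4 of energy supply and oxygen storage.

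Striated muscle contracts when calcium released through the ryanodine receptor frees actin for myosin, and the calcium pump of the sarcoplasmic reticulum then ends the contraction. Fast and slow fibres build the same sarcomere from different isoforms of myosin, troponin and myosin light chain, so these isoforms mark the fibre type. In rodents the outer muscle coat of the oesophagus is striated along nearly its whole length, while the muscularis mucosae beneath the epithelium is smooth muscle.

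The study asked how dietary zinc and miR-31, an oncogenic microRNA of the oesophagus, act in rats given the oesophageal carcinogen N-nitrosomethylbenzylamine (NMBA). RNA of 30 male Sprague-Dawley rats was hybridized to 1 Affymetrix rat expression array each, and values were deposited on the log2 scale. Diets began at 4 weeks of age, NMBA was given by stomach tube from week 5 as 4 weekly doses of 2 mg/kg, and rats were killed 15 weeks after the first of these or shortly after the last antimiR injection. Unedited rats formed 4 groups of 5: zinc-sufficient (ZS) controls, pair-fed to the zinc-deficient rats; untreated zinc-deficient (ZD) controls; and 2 ZD groups given a locked nucleic acid antimiR against miR-31 by tail vein. The antimiR began with 20 mg/kg and went on with 9 doses of 6 mg/kg within the first 5 weeks, and only the 20-week group had 20 more after that. The labels leave unclear at what age the 5-week rats were killed and whether they had received the carcinogen. Rats with both copies of miR-31 removed by CRISPR/Cas9 in the same strain formed a ZS group of 4 and a ZD group of 6, described apart in the labels and given the carcinogen in the same way.

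Arrays are named by the number in their label: 16 to 20 for ZS controls, 11 to 15 for ZD controls, 6 to 10 and 1 to 5 for the 5-week and 20-week antimiR groups, 30 to 33 for ZS knockouts and 34 to 39 for ZD knockouts. The array median lay between 5.37 and 5.45 on the 20 unedited arrays and between 5.81 and 5.93 on the 10 knockout arrays. The sets were therefore taken as normalized separately, and knockout levels are set beside unedited ones without a test. The tissue label, epithelium, was borne out in part. The mean of 10 epithelial genes, among them the keratin Krt13, was between 12.32 and 12.73 on all arrays. Muscle signal was also high on some arrays: the skeletal muscle actin gene Acta1 read between 12.34 and 13.10 in the ZS knockouts. The knockout itself was not checked on these arrays, since the miR-31 gene had 0 probe sets named by its symbol. Each array number was taken as 1 rat, which the labels do not state outright, so p-values measure the spread between these samples. Arrays of a group correlated between 0.977 and 0.995, and 0 pairs held identical values.

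The promoters of 4 members are shown because the unedited arrays put Acta1, Ckm and Myl3 together and Tnni1 apart from them. On knockout arrays Tnni1 was less clearly apart. The 4 genes were chosen after their values were seen. Each sequence runs 5′ to 3′ on the gene's strand, from 250 bases before to 50 bases after the start, and is credited to RefSeq on the GRCr8 build. Capitals mark matches on either strand to the CArG box, which serum response factor binds, or to CAGCTG, a form of the E box that the MyoD family binds. Acta1, skeletal muscle alpha-actin, lies at chr19:68784145-68784444 on the minus strand. Ckm, muscle creatine kinase, lies at chr1:88189211-88189510 on the plus strand. Myl3, a myosin light chain of slow fibres, lies at chr8:119616844-119617143 on the plus strand. Tnni1, slow troponin I, lies at chr13:49781279-49781578 on the plus strand.
Acta1: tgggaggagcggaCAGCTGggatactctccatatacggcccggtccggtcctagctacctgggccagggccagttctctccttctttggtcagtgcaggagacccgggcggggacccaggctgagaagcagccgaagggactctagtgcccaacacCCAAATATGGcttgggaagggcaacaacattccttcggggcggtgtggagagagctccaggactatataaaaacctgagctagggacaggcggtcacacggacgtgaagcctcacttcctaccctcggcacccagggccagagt
Ckm: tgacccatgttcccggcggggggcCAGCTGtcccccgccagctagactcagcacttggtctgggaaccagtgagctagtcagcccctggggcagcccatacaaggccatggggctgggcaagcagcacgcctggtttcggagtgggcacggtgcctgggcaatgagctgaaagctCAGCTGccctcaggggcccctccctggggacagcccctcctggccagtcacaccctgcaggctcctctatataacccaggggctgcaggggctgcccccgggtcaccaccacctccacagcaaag
Myl3: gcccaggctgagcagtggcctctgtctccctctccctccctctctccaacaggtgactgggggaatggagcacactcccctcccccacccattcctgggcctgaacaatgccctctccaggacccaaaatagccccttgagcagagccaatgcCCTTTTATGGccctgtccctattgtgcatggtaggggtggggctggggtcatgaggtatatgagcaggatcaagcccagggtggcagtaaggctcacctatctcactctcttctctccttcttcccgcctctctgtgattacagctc
Tnni1: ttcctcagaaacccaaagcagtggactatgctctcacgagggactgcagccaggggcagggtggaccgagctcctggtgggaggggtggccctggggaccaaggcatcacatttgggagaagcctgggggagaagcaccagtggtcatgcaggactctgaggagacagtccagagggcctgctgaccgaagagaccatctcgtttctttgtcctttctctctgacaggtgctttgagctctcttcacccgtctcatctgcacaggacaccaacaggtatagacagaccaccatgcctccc
Acta1 held 1 CArG box and 1 CAGCTG, Ckm held 2 CAGCTG, Myl3 held 1 CArG box, and Tnni1 held 0 of either.

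A promoter was found for 29 of the members. The CArG box was present in 4 of them, those of Acta1, Ldb3, Myh4 and Myl3, which is 13.8%, against 1.64% of all 27457 promoters of the same length. The MEF2 site, named for the myocyte enhancer factor that binds it, was present in 6, which is 20.7% against 3.37%; these were Myh1, Myh4, Myoz1, Myoz2, Smpx and Ttn. CAGCTG was present in 11, or 37.9% against 15.1%, and the looser E box CANNTG, which includes every CAGCTG, in 25, or 86.2% against 71.6%. These are letter matches in a short window, described and not tested.

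The striated muscle genes varied widely between rats of the same group. Acta1 covered a 111-fold range over the 20 unedited arrays, from 5.61 to 12.41, and a 7.34-fold range over the 10 knockout arrays, from 10.22 to 13.10. Tnnc2, the calcium-binding troponin of fast fibres, covered 198-fold over the unedited arrays, and Myl1, the fast essential light chain, 141-fold. The residual standard deviation (SD) within groups had a median of 1.32 log2 units over the 34 members and of 0.163 over all genes. It was above the 95th percentile of all genes, 0.510, for 29 of the 34 members.

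**Figure D1:**
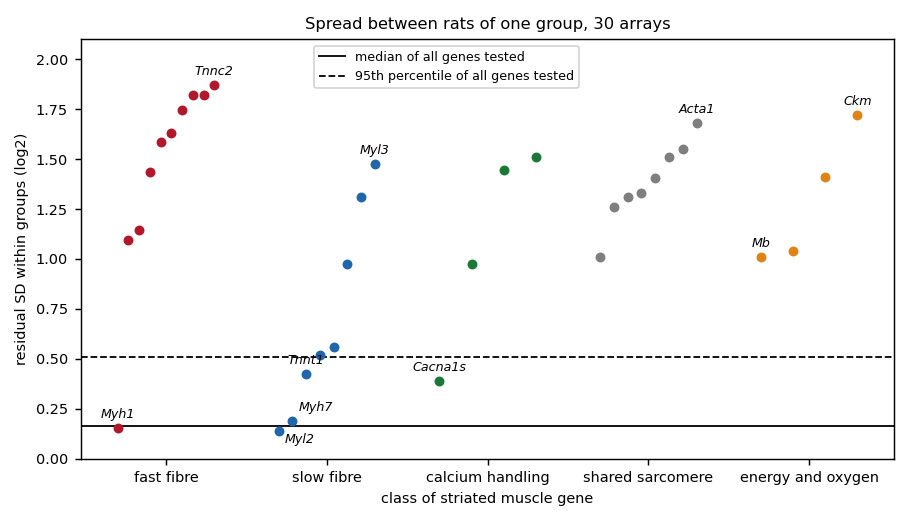
Residual SD within groups (log2 units, y axis) of each measured striated muscle gene, 1 point per gene, by class (x axis), with the median (solid line) and the 95th percentile (dashed line) of all 14217 genes. All 8 shared sarcomere genes and all 4 energy and oxygen genes lie above the dashed line, and Myh1, Myl2, Myh7, Tnnt1 and Cacna1s lie below it.

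Among the shared sarcomere genes, Acta1 read 9.03, 10.10, 9.25, 7.46 and 11.59 on arrays 16 to 20 of the ZS controls. In the ZD controls it read 10.61, 10.06, 12.22, 8.79 and 5.61 on arrays 11 to 15. One control rat of each diet was thus far above and another far below its companions, and the 2 groups overlapped over their whole middle. Acta1 read 11.49, 10.64, 6.52, 9.17 and 9.94 on arrays 6 to 10 of the 5-week antimiR group. It read 10.47, 8.94, 9.36, 12.41 and 7.34 on arrays 1 to 5 of the 20-week group. Both antimiR groups held the same kind of spread as their controls. In the knockouts Acta1 was high throughout, at 13.02, 12.34, 13.10 and 12.60 on arrays 30 to 33 and between 10.22 and 12.73 with a median of 11.64 in the 6 ZD knockouts. Ttn, the giant spring protein titin, ran from 4.46 to 9.65 in unedited rats and from 7.19 to 9.65 in knockouts. Over the 8 shared sarcomere genes the range on unedited arrays was smallest, at 22.0-fold, for Ldb3, a Z-disc scaffold, and largest for Acta1.

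**Figure D2:**
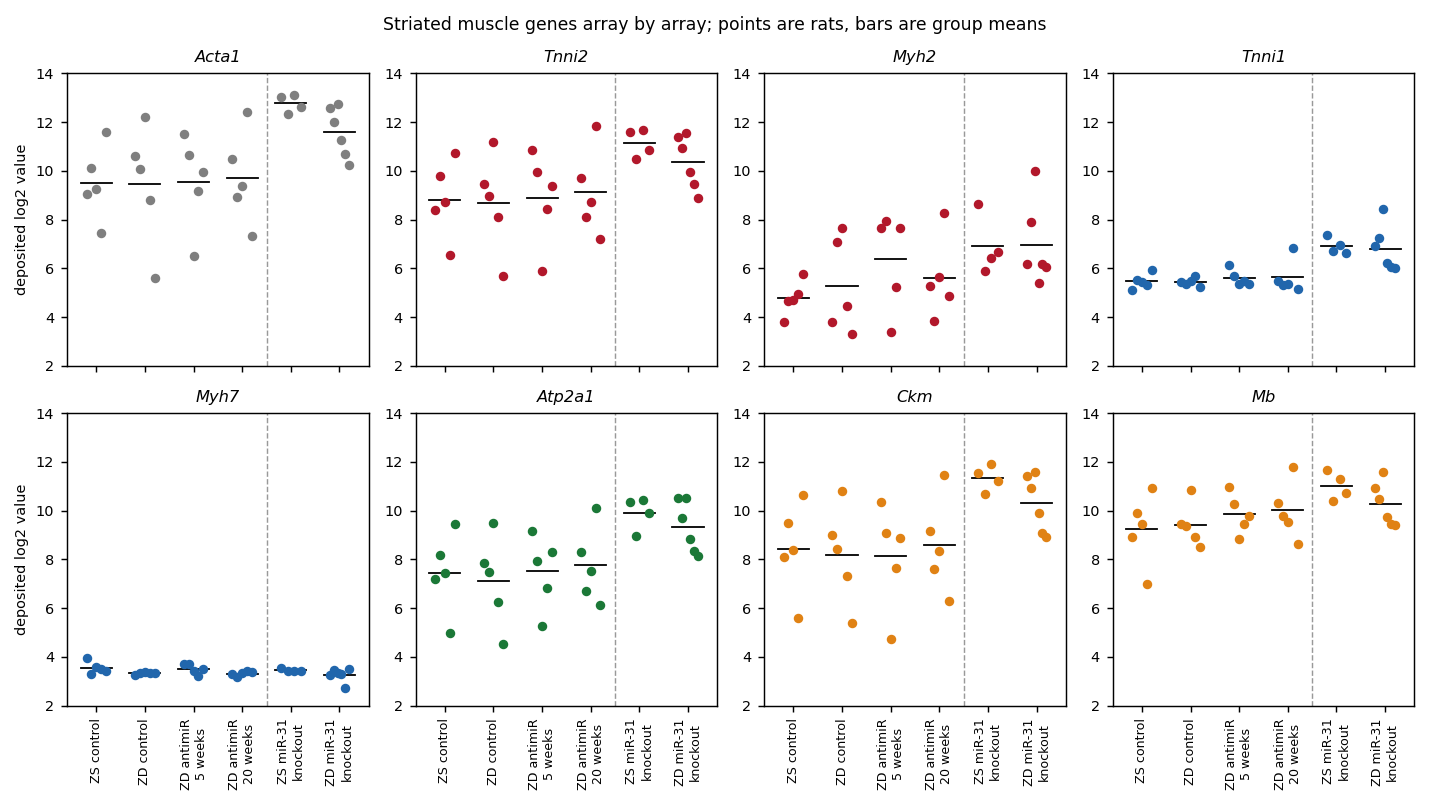
Deposited log2 value (y axis) of 8 striated muscle genes in each rat (points) by group (x axis), with the group mean as a bar and a dashed line between unedited and knockout arrays, which were taken as normalized separately. Acta1 runs from 5.61 to 12.41 on the unedited arrays, while the slow myosin Myh7 stays between 3.17 and 3.94 there.

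Of the 10 fast fibre genes 7 had the same rats highest and lowest in all 4 unedited groups as Acta1; the heavy chains Myh1, Myh2 and Myh4 did not. Tnni2, fast troponin I, read 8.39, 9.78, 8.70, 6.53 and 10.71 on the ZS control arrays 16 to 20 and 9.47, 8.98, 11.19, 8.09 and 5.67 on the ZD control arrays 11 to 15. In the 5-week antimiR group Tnni2 read 10.84, 9.96, 5.88, 8.42 and 9.37, and in the 20-week group 9.70, 8.11, 8.73, 11.85 and 7.22. Arrays 20, 13, 6 and 4 were the highest of their groups and arrays 19, 15, 8 and 5 the lowest, as for Acta1. Tnni2 in the knockouts read 11.61, 10.47, 11.66 and 10.85 on ZS arrays 30 to 33, and between 8.89 and 11.56 with a median of 10.44 in the ZD group.

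Of the 4 calcium handling genes 3 had those same arrays highest and lowest. Atp2a1, the calcium pump of fast fibres, read 7.18, 8.18, 7.43, 5.00 and 9.46 in the ZS controls and 7.87, 7.48, 9.50, 6.24 and 4.52 in the ZD controls. In the antimiR groups Atp2a1 read 9.16, 7.95, 5.27, 6.84 and 8.31 at 5 weeks and 8.32, 6.72, 7.52, 10.13 and 6.15 at 20 weeks. Again rats 20, 13, 6 and 4 stood highest. Over the unedited arrays Casq1, the calcium store of the fast sarcoplasmic reticulum, covered 66.8-fold, Atp2a1 48.8-fold and Ryr1, the ryanodine receptor, 10.2-fold, but Cacna1s, the voltage sensor of the T-tubule, 2.44-fold, from 3.56 to 4.84. Cacna1s thus lay low on all unedited arrays, and the part of this in its small range was not tested. Cacna1s was highest on array 7 at 5 weeks of antimiR, with 4.22 against 4.11 on array 6, and lowest on array 17 of the ZS controls, with 3.94 against 4.03 on array 19.

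Of the energy and oxygen genes, Ckm, which buffers ATP through phosphocreatine, read 8.08, 9.50, 8.38, 5.60 and 10.64 in the ZS controls and 9.00, 8.42, 10.82, 7.32 and 5.38 in the ZD controls. Ckm read 10.34, 9.10, 4.73, 7.63 and 8.89 at 5 weeks of antimiR and 9.18, 7.59, 8.35, 11.46 and 6.30 at 20 weeks. Mb, the oxygen store myoglobin, was less spread in the same rats: 8.90, 9.91, 9.46, 7.01 and 10.93 in the ZS controls and 9.47, 9.39, 10.84, 8.93 and 8.49 in the ZD controls. Array 15, where Acta1, Tnni2 and Ckm were lowest of all ZD controls, was also the lowest for Mb there, but by a smaller distance.

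How far members shared their order was counted array by array. In the ZS controls array 20 was the highest of its group for 30 of 34 members and array 19 the lowest for 24. In the ZD controls array 13 was highest for 31 and array 15 lowest for 28. In the antimiR groups array 6 was highest for 27 and array 8 lowest for 31 at 5 weeks, and array 4 highest for 32 and array 5 lowest for 25 at 20 weeks. The ZS knockouts had arrays 30 and 32 at the top, for 19 and 14 members, and array 31 lowest for 28. The ZD knockouts had array 36 highest for 24, array 34 for 8, and array 39 lowest for 28. The members share a library on each array, so these are counts over 1 set of 30 rats and not independent observations.

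**Figure D3:**
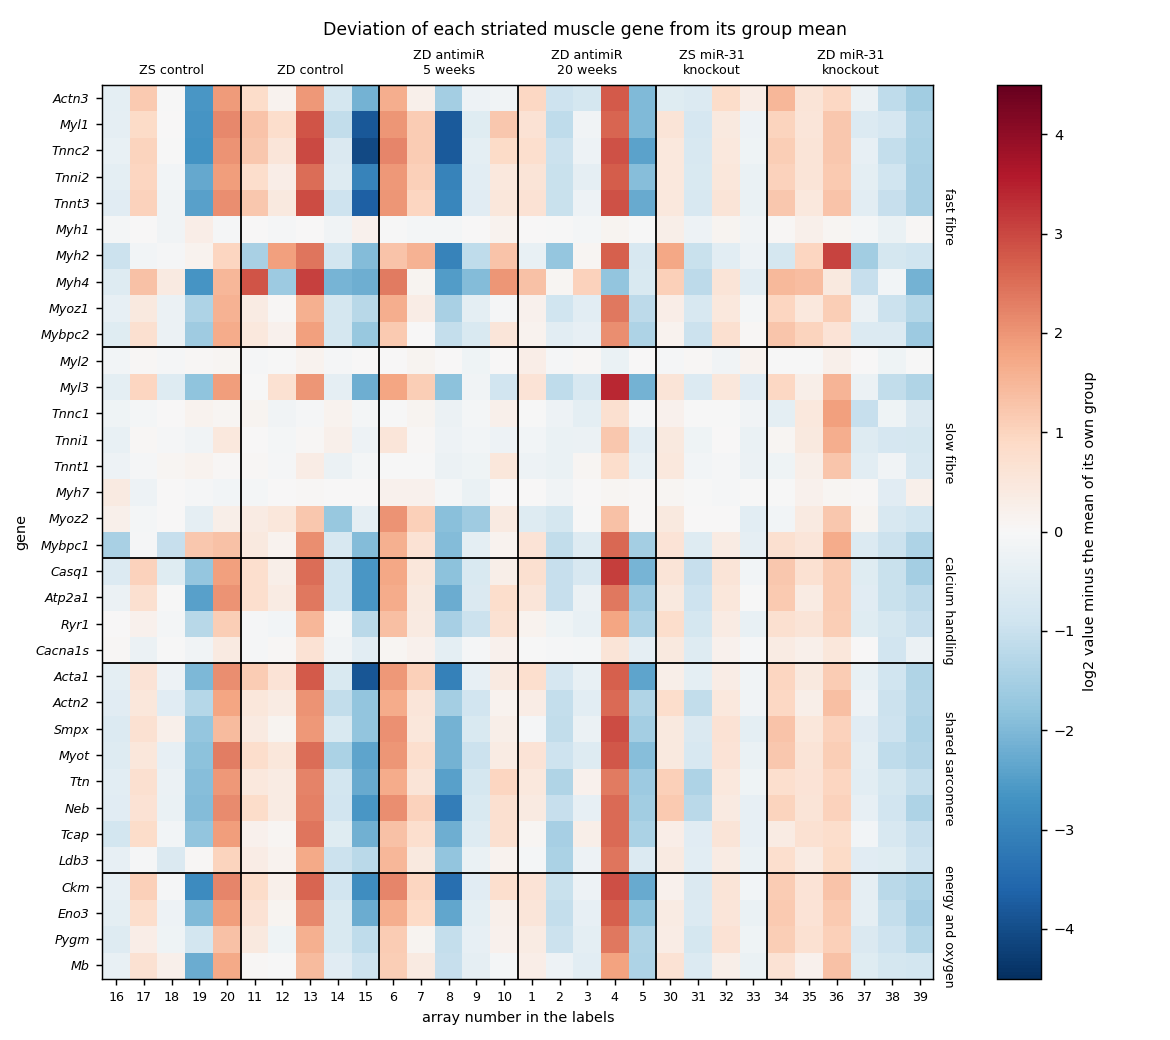
Log2 value of each striated muscle gene (rows, by class) on each array (columns, by group) minus the mean of its own group; red is above and blue below. Most of the column is red on arrays 20, 13, 6, 4 and 36 (31 to 34 of 34 genes above their group mean) and blue on arrays 19, 15, 8, 5 and 39 (1 to 7 above it). Myh4 on array 4 and Mybpc1 on array 19 go clearly the other way, and Myh1, Myl2 and Myh7 stay near 0.

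To put a size on this shared order, each of the other 14216 genes was fitted on Acta1 within groups, with Acta1 at its own deposited value; this fit was added after the values had been seen. Over the 20 unedited arrays 137 genes (0.964%) rose with Acta1 at an adjusted p under 0.05, and 25 of the 33 other members were among them. Over the 10 knockout arrays 138 genes (0.971%) did so, and 23 of the 33 members were among them; all 23 were also among the 25. Of all genes 102 rose with Acta1 in both sets, which is 74.5% of those in unedited arrays and 73.9% of those in knockout arrays. For the single pair Acta1 and Ckm the correlation of group-centred values was r = 0.978 and rho = 0.971 over 20 unedited arrays. After adjustment over 8 relations the permutation p was 8e-05 for both. Before adjustment it was 1e-05, the smallest that 100000 permutations can give. The correlation was 0.989 and 1 over 10 knockout arrays, with adjusted permutation p = 0.00028 for both. Without arrays 8 and 15, and without arrays 36 and 39, the 2 farthest from the median of Acta1 in each set, r was 0.987 and 0.990.

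**Figure D4:**
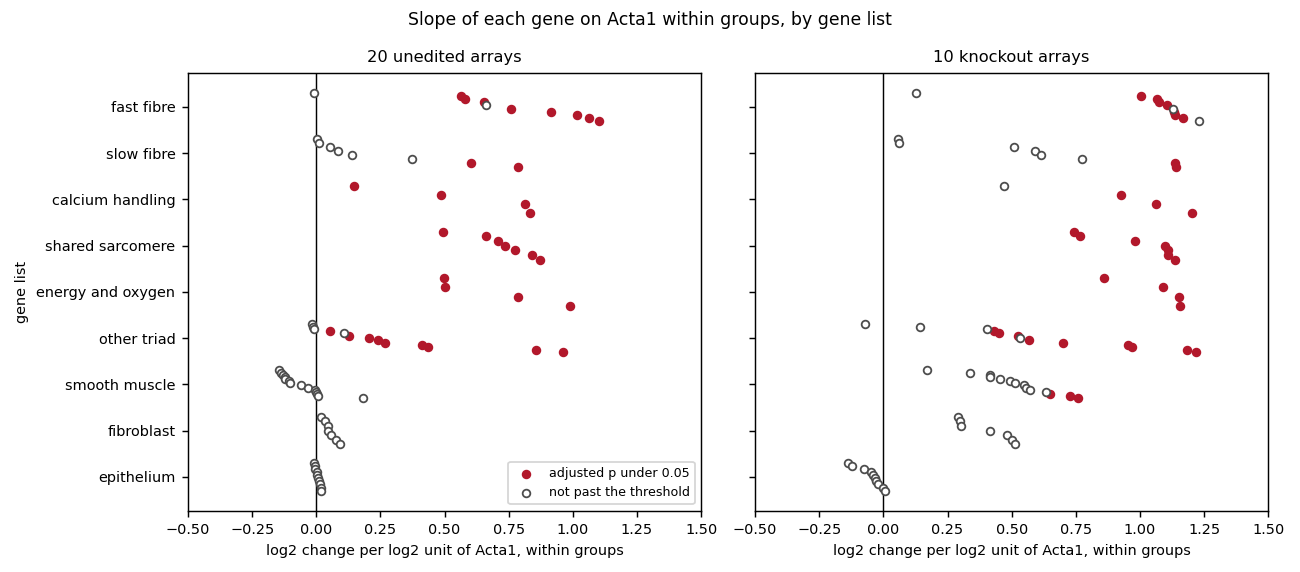
Change of each gene per log2 unit of Acta1 within groups (x axis, log2 units) by gene list (y axis), for 20 unedited arrays (left) and 10 knockout arrays (right); filled points passed an adjusted p under 0.05. On unedited arrays 7 of 7 other shared sarcomere genes and 4 of 4 energy and oxygen genes are filled, but 2 of 8 slow fibre genes, 0 of 14 smooth muscle genes and 0 of 10 epithelial genes.

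Several fast contractile genes moved nearly one for one with Acta1, and others by less. On unedited arrays the slope was 1.10 for Tnnc2 (standard error, SE, 0.03), 1.06 for Myl1 (SE 0.04), 1.02 for Tnnt3, fast troponin T (SE 0.03), and 0.91 for Tnni2 (SE 0.03). It was 0.76 for the actinin Actn3 (SE 0.07), 0.58 for Mybpc2, the fast form of myosin-binding protein C (SE 0.05), and 0.56 for Myoz1 (SE 0.05), and the median over the 10 fast genes was 0.71. In all, 8 of 10 fast genes passed on unedited arrays and 7 of 10 on knockout arrays. The genes that did not pass in one or both sets were myosin heavy chains. Myh4, the heavy chain of the fastest fibres, had a slope of 0.66 (SE 0.19, adjusted p = 0.19) on unedited arrays, and Myh1 of -0.01 (SE 0.02). Myh2, of fast oxidative fibres, had 0.65 (SE 0.13, adjusted p = 0.0102) on unedited arrays and 1.13 (SE 0.46, adjusted p = 0.514) on knockout arrays. These heavy chains are closely related genes of 1 cluster, and their values are uncertain. Whether hybridization separates them was not tested. The 5 probe sets of Myh1 all varied little on unedited arrays, with an SD within groups between 0.115 and 0.263.

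All 4 calcium handling genes rose with Acta1 on unedited arrays, with slopes of 0.83 for Casq1 (SE 0.05), 0.81 for Atp2a1 (SE 0.05), 0.49 for Ryr1 (SE 0.05) and 0.15 for Cacna1s (SE 0.02). On knockout arrays 3 of the 4 did, at 1.20, 1.06 and 0.93, and Cacna1s had 0.47 (SE 0.11, adjusted p = 0.117). Some members with smaller slopes came near the lowest values on unedited arrays. Their minima there were 3.81 for Ryr1, 3.93 for Mybpc2 and 3.39 for the actinin Actn2, against 5.79, 5.90 and 5.41 on knockout arrays. But Tnnt3 went down to 3.96 with a slope of 1.02, and Mb only to 7.01 with a slope of 0.50. The part of low values in the slopes was not tested. Among the 7 other shared sarcomere genes all passed in both sets, with slopes between 0.50 for Ldb3 and 0.87 for Neb, the thin filament ruler nebulin, on unedited arrays. The 4 energy and oxygen genes also all passed in both sets: on unedited arrays Ckm had 0.99 (SE 0.05), Eno3, muscle enolase, 0.79 (SE 0.04), Pygm, muscle glycogen phosphorylase, 0.50 (SE 0.05) and Mb 0.50 (SE 0.06).

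At the adjusted threshold the slow fibre genes did not form 1 group. Myl3 and Mybpc1, the slow form of myosin-binding protein C, rose with Acta1 on unedited arrays, by 0.78 (SE 0.07) and 0.60 (SE 0.10), and on knockout arrays by 1.14 in both cases (SE 0.09 and 0.10). The other 6 of 8 did not pass in either set. At an unadjusted p under 0.05 in limma, 5 of the 8 slow genes rose on unedited and 6 of 8 on knockout arrays. Tnni1 had 0.14 on unedited arrays (SE 0.04, adjusted p = 0.139) and 0.78 on knockout arrays (SE 0.16, adjusted p = 0.0558). Myh7, the slow myosin heavy chain, had 0.01 (SE 0.02) and 0.06 (SE 0.09), and Myl2, the slow regulatory light chain, 0.00399 (SE 0.02) and 0.06 (SE 0.06). Both lay low on every array, Myh7 between 2.74 and 3.94 and Myl2 between 3.43 and 4.53. On unedited arrays the slow troponin genes Tnnt1 (2.72 to 4.04) and Tnnc1 (3.47 to 4.77) also lay low, which limits the slope they can show there. The correlation of Myh7 with Acta1 was r = 0.139 (adjusted permutation p = 0.725) on unedited and 0.223 (adjusted permutation p = 0.845) on knockout arrays.

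The troponins of slow fibres were raised on single arrays. Tnni1 read 5.13, 5.51, 5.42, 5.32 and 5.94 on arrays 16 to 20 and 5.46, 5.36, 5.50, 5.67 and 5.22 on arrays 11 to 15. It read 6.14, 5.67, 5.36, 5.48 and 5.37 at 5 weeks of antimiR and 5.49, 5.32, 5.36, 6.83 and 5.15 at 20 weeks. Array 4, with Acta1 at 12.41, was the highest, but array 13, with Acta1 at 12.22, had Tnni1 at 5.50, among its companions. In the knockouts Tnni1 read 7.36, 6.71, 6.94 and 6.62 on ZS arrays, and 6.90, 7.23, 8.42, 6.22, 6.04 and 6.00 on ZD arrays 34 to 39. Array 36 also had the highest Tnnc1, the slow and cardiac troponin C, at 6.79 against 3.91 to 5.43 on the other ZD knockouts, and Tnnt1, slow troponin T, at 4.82 against 2.84 to 3.83. Myh2 was at 10.01 on that array against 5.39 to 7.92, while Acta1 was at 12.73 on array 36 and nearly as high, at 12.56, on array 34.

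The fast heavy chains also differed between rats with like levels of Acta1. Arrays 11 and 12 had Acta1 at 10.61 and 10.06, but Myh2 at 3.82 and 7.10 and Myh4 at 8.14 and 3.68, in the opposite order. On array 4 Myh2 was at 8.28, the highest of the unedited rats, and Myh4 at 4.07, the lowest of its group. Array 19 was a mixed case: Acta1 was at 7.46, the lowest of its group, while Mybpc1 was at 9.05 and Ldb3 at 7.69, the second highest of that group after array 20, with 9.16 and 8.66. The mean of 14 smooth muscle genes was 9.62 on array 19, the highest of the 20 unedited arrays.

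Other genes of the muscle fibre, from lists of the same pathway, were read against Acta1 in the same fit. Of 13 further genes of the triad and calcium release, 9 rose with it on unedited and 9 on knockout arrays, led by Sln, the calcium pump inhibitor sarcolipin (0.96 and 1.19), and Trdn, triadin (0.86 and 1.22). Of 20 genes of the Z-disc and costamere 11 and 13 rose, led by Klhl41 (0.86) on unedited arrays. Of 14 further metabolic genes 7 and 8 rose, among them Cox8b (0.79 and 1.06), a muscle subunit of cytochrome oxidase, and Ckmt2, mitochondrial creatine kinase (0.78 and 1.27). Of 13 other contractile genes 4 and 3 rose, and the largest slope was that of Myh8, the perinatal heavy chain (1.12 and 0.98), a paralog of the chains above. Of 7 myogenic regulators 3 rose on unedited arrays, Mef2c (0.41), Myf6 (0.36) and Myog (0.10), and on knockout arrays 1, Myf6 (1.09). Of 9 genes of the neuromuscular junction 0 passed in limma in either set, and 3 and 2 had an unadjusted p under 0.05. Rapsn, among the 3 on unedited arrays, fell as Acta1 rose (-0.07).

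Lists drawn up for other tissues were read in the same fit, and whether their genes are absent from striated fibres was not tested. On unedited arrays limma passed 0 of 14 smooth muscle, 0 of 10 epithelial, 0 of 7 cardiac and 0 of 7 fibroblast genes. It also passed 0 of 6 endothelial, 0 of 8 nerve and Schwann cell and 0 of 6 adipocyte genes. An unadjusted p under 0.05 was reached there by 1 smooth muscle, 1 endothelial and 2 nerve genes and by 0 of the others. On knockout arrays 3 of 14 smooth muscle genes passed, Hspb6 (0.76), Cnn1 (0.73) and Actg2 (0.65), and 0 of each of the other lists. At an unadjusted p under 0.05 in limma it was 13 of 14 smooth muscle, 3 fibroblast, 2 endothelial and 2 adipocyte genes. It was 0 epithelial, cardiac or nerve genes. Plin1, among the 2 adipocyte genes, fell as Acta1 rose (-0.11). The smooth muscle myosin Myh11 had r = -0.278 with Acta1 over unedited arrays (adjusted permutation p = 0.448) and 0.747 over knockout arrays (adjusted permutation p = 0.108); without the 2 farthest arrays the values were -0.00416 and 0.741. Krt13 had r = -0.289 (adjusted permutation p = 0.448) and -0.0268 (adjusted permutation p = 0.942). The difference of slopes between knockout and unedited arrays passed for 0 of 14216 genes (0.00%) in limma, at an unadjusted p under 0.05 for 1010 of them, 12 of the 33 members and 9 of the 14 smooth muscle genes. It was above 0 for 33 of 33 members (median 0.36) and 14 of 14 smooth muscle genes (median 0.58), against 6342 of all genes (median -0.01). The sets differ in their array medians and may have been normalized separately. Members such as Ryr1 also went lower on unedited arrays, down to 3.81 there and to 5.79 on knockout arrays. The part of either was not tested.

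Zinc deficiency in unedited rats changed 0 of the 34 members in limma, where 13.9% of all genes passed an adjusted p of 0.05; at an unadjusted p under 0.05 the count was also 0 of 34, against 28.0% of all genes. In bulk tissue fewer muscle cells and less RNA per muscle cell cannot be told apart. Acta1 averaged 9.46 in ZD and 9.49 in ZS controls (change -0.03, SE 1.01, 95% interval -2.10 to 2.04), which is an interval from 0.234-fold to 4.12-fold. The changes of Ttn (-0.13, SE 0.84), Tnni2 (-0.14, SE 0.95), Atp2a1 (-0.33, SE 0.87), Ryr1 (0.16, SE 0.59), Ckm (-0.25, SE 1.03), Mb (0.18, SE 0.61) and Myh2 (0.49, SE 0.98) were all smaller than their errors. Tnni1 changed by -0.02 (SE 0.34). The smallest adjusted p of each class was 0.253 for Myh7 (-0.21), 0.446 for Ldb3 (-0.76), 0.605 for Myh1 (-0.09), 0.679 for Pygm (-0.46) and 0.854 for Atp2a1. The median change of the members was -0.20, against 0.00358 over all genes.

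Smooth muscle moved with diet in the same rats: 13 of 14 genes fell in ZD controls, where 6.95% of all genes did, with a median change over the 14 of -1.99, and their mean level lay between 6.56 and 7.56 in ZD and between 8.30 and 9.62 in ZS controls. Of the other muscle fibre lists, 2 of 13 contractile, 1 of 13 triad, 2 of 20 Z-disc and costamere and 0 of 14 metabolic genes fell, and 0, 1, 1 and 1 rose. Those that fell were Tpm1 and Tpm2, tropomyosins (-1.46, adjusted p = 0.00536, and -0.81, adjusted p = 0.0133), Jph2, a junctophilin (-0.87, adjusted p = 0.0130), and Pdlim3 and Flnc of the Z-disc (-1.55, adjusted p = 0.0194, and -1.33, adjusted p = 0.0435). None of these 5 rose with Acta1 on unedited arrays, where their slopes were between -0.06 and 0.17. Those that rose were Atp2a2, the calcium pump of slow and non-striated cells (0.28, adjusted p = 0.0221), Pdlim5 (0.56, adjusted p = 0.0159) and the lipase Lpl (1.15, adjusted p = 0.0147). Of the epithelial list 3 of 10 fell, Evpl (-0.50), Ppl (-0.41) and Krt15 (-0.19). The part of the smooth muscle layer in these changes was not tested.

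**Figure D5:**
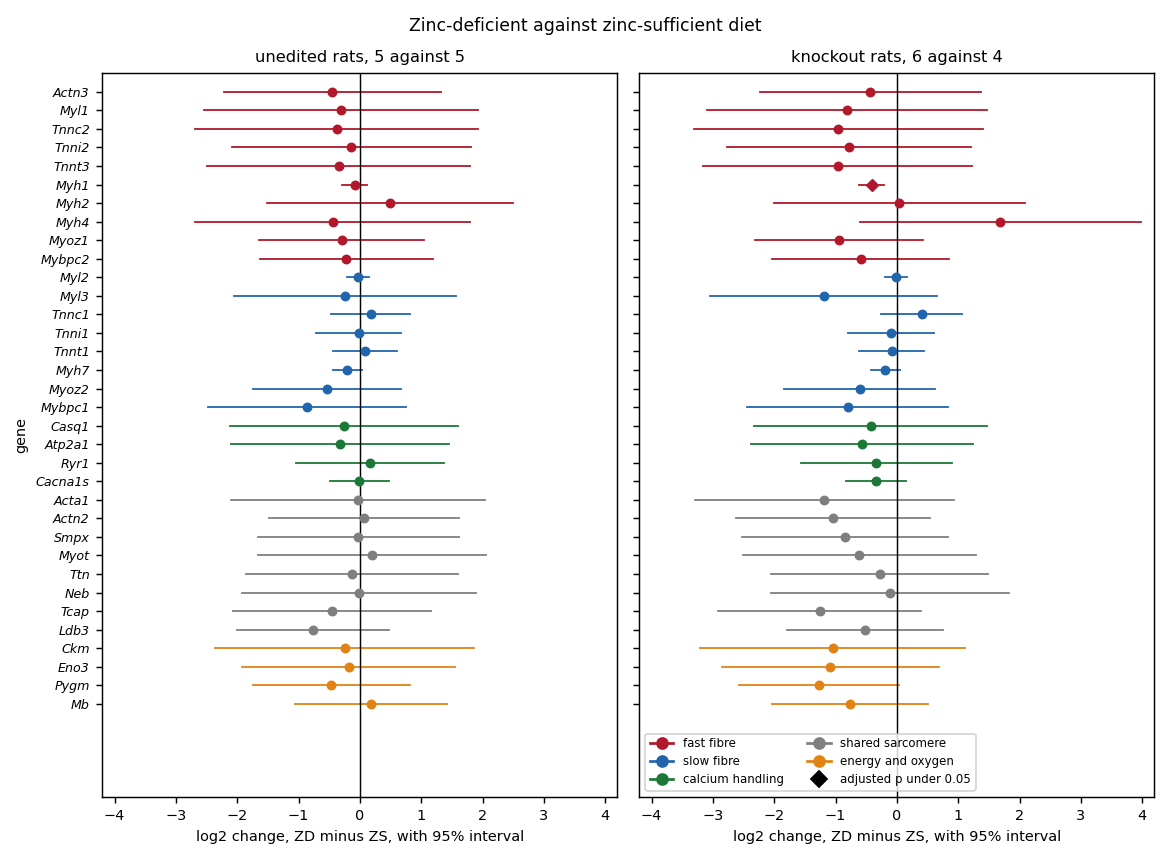
Change on the zinc-deficient diet (x axis, log2 units, ZD minus ZS) of each striated muscle gene (y axis), with its 95% interval, in unedited rats (left, 5 against 5) and knockout rats (right, 6 against 4). The interval of Acta1 runs from -2.10 to 2.04 in unedited rats and from -3.30 to 0.93 in knockouts, and Myh1 in knockouts is the 1 gene past an adjusted p of 0.05. The intervals use a residual SD pooled over unedited and knockout arrays.

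In knockout rats 1 of the 34 members changed with diet, where 21.4% of all genes did. This was Myh1, at a mean of 10.40 in 4 ZS and 9.99 in 6 ZD knockouts, where 12.0% of all genes fell (change -0.41, SE 0.10, adjusted p = 0.00456). Its values were 10.65, 10.18, 10.54 and 10.24 on ZS arrays and 10.03, 10.23, 10.07, 9.90, 9.68 and 10.04 on ZD arrays, and the groups overlapped, by ZD array 35 above ZS array 31. On unedited arrays Myh1 had stayed between 9.52 and 10.05 whatever the level of Acta1, and its brightest probe set is of a type that can bind related transcripts. On knockout arrays its slope on Acta1 was 0.13 (SE 0.07, limma adjusted p = 0.674). The slope of Myh1 thus passed in neither set. Its interval on knockout arrays ran from -0.04 to 0.29, so a weak rise with Acta1 there is not excluded. Whether the change of Myh1 stands for the other members was not tested. Read as the mean of its 5 probe sets Myh1 changed by -0.22 (adjusted p = 0.0630), from the second probe set by -0.26 (adjusted p = 0.113), and with the smooth muscle level as a covariate by -0.28 (adjusted p = 0.0884).

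The other 33 members were not called, and 31 of the 34 changes were below 0, with a median of -0.60 against 0.00524 over all genes. Acta1 changed by -1.19 (SE 1.03, 95% interval -3.30 to 0.93, adjusted p = 0.445), Ckm by -1.05 (SE 1.05), Tnni2 by -0.78 (SE 0.97), Mb by -0.76 (SE 0.62), Atp2a1 by -0.57 (SE 0.88), Ryr1 by -0.33 (SE 0.60) and Ttn by -0.28 (SE 0.86). Tnni1 (-0.10, SE 0.34), Myh7 (-0.19, SE 0.12, adjusted p = 0.273) and Myh2 (0.04, SE 1.00) had small changes, while Myh4 changed by 1.69 (SE 1.12). The smallest adjusted p in the other classes was 0.155 for Pygm (-1.28), 0.276 for Tcap, which caps titin at the Z-disc (-1.26), and 0.326 for Cacna1s (-0.34). Pygm depended on the probe set: from the brightest it was 8.84 in ZS and 7.57 in ZD knockouts, and from the second of 3 it was 7.28 and 5.89, a change of -1.39 (adjusted p = 0.000371); the mean of the 3 changed by -1.61 (adjusted p = 0.0268). The errors above rest on a residual SD pooled over unedited and knockout arrays, 1.68 for Acta1. The SD of Acta1 was 0.36 in ZS and 1.02 in ZD knockouts, against 1.51 to 2.48 in unedited groups. Its interval in knockouts thus also carries the wider spread of unedited rats. Tnni1 went the other way, with an SD of 0.93 in ZD knockouts against 0.17 to 0.68 in unedited groups. Tcap passed (adjusted p = 0.0476) when the knockout groups alone were fitted.

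In the same knockouts 7 of 14 smooth muscle genes fell, with a median of -1.25, and their mean level lay between 8.69 and 10.21 in ZD and between 10.06 and 10.95 in ZS rats. Of the other muscle lists Jph2 fell by 1.44 (adjusted p = 0.000126) and Pln, phospholamban, by 0.83 (adjusted p = 0.0139). Tpm2 fell by 0.81 (adjusted p = 0.00974) and Tpm3 rose by 0.30 (adjusted p = 0.0291). Of the Z-disc and costamere list Sgca, a sarcoglycan, fell by 0.84, Capn3, muscle calpain, by 0.88 and Dmd, dystrophin, by 0.27, and Pdlim5 rose by 0.45. Of the metabolic list Phkg1, a subunit of phosphorylase kinase, fell by 0.57 and Gys1, glycogen synthase, by 0.40. The difference of the diet changes between knockout and unedited rats passed for 0 of 34 members in limma, and for 1, Myh1 (-0.32, SE 0.14, adjusted p = 0.153), at an unadjusted p under 0.05, where 8.39% and 23.4% of all genes did. For Acta1 that difference was -1.16 (SE 1.44, 95% interval -4.12 to 1.80), for Ckm -0.80 (SE 1.48), for Tnni2 -0.64 (SE 1.36), for Atp2a1 -0.24 (SE 1.24) and for Tnni1 -0.08 (SE 0.48). Ryr1 (-0.50), Myh2 (-0.45), Ttn (-0.15) and Myh7 (0.02) were likewise within their errors. The smallest adjusted p of the other classes was 0.563 for Mb (-0.94), 0.588 for Actn2, the Z-disc actinin (-1.11), 0.607 for Cacna1s (-0.33) and 0.710 for Myl3 (-0.95). Atp2a2 (-0.47, adjusted p = 0.0146) and Lpl (-1.50, adjusted p = 0.0376) of the related lists did pass.

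The antimiR groups were each compared with the ZD controls that also entered the diet comparison, so these comparisons share 5 rats. The age and carcinogen status of the 5-week rats are unclear. Their comparisons with ZD controls and with the 20-week group may therefore also carry differences in age and carcinogen. After 5 weeks of antimiR limma called 0 of 34 members, and 0.00% of all genes; at an unadjusted p under 0.05 it was 0 of 34, against 7.18%. After 20 weeks it called 0 of 34, against 0.647% of all genes, and 0 of 34 at an unadjusted p under 0.05, against 14.8%. Acta1 changed by 0.09 (SE 1.01) at 5 weeks and 0.24 (SE 1.01) at 20 weeks, Ckm by -0.05 and 0.39 (SE 1.03 each), and Tnni1 by 0.16 and 0.19 (SE 0.34 each). Tnni2 changed by 0.21 and 0.44 (SE 0.95 each), Ttn by 0.55 and 0.61 (SE 0.84 each), Ryr1 by 0.03 and 0.13 (SE 0.59 each) and Myh7 by 0.18 and -0.02 (SE 0.12 each). Myh2 changed by 1.10 and 0.32 (SE 0.98 each), Atp2a1 by 0.38 and 0.64 (SE 0.87 each) and Mb by 0.45 and 0.59 (SE 0.61 each). The smallest adjusted p of each class at 5 weeks was 0.785 for Myh7, 0.832 for Myh2, 0.833 for Tcap (0.88), 0.896 for Mb and 0.898 for Cacna1s (-0.17). At 20 weeks it was 0.466 for Myl2 (0.14), 0.696 for Mb, 0.712 for Smpx, a small sarcomeric protein (0.74), 0.744 for Myoz1, a fast Z-disc protein (0.55), and 0.774 for Atp2a1.

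Smooth muscle in the antimiR groups was called in 0 of 14 genes at either time, and at an unadjusted p under 0.05 in 1 and 7 of 14, all of them higher than in ZD controls, with a median of 0.62 and 0.96 over the list. Between 20 and 5 weeks limma called 0 of 34 members, against 0.0211% of all genes, and 0 of 34 at an unadjusted p under 0.05, against 6.11%. Acta1 differed by 0.15 (SE 1.01), Myh2 by -0.78 (SE 0.98), Tcap by -0.59 (SE 0.79), Ckm by 0.44 (SE 1.03), Cacna1s by 0.19 (SE 0.23) and Myh7 by -0.20 (SE 0.12, adjusted p = 0.850). Ttn, Tnni2, Tnni1, Atp2a1, Ryr1 and Mb differed by between 0.02 and 0.27. In the 5 pairs of groups compared, 0 of 34 members had groups that did not overlap; the share of all genes that did was 11.4% for diet in unedited rats, 1.12% and 2.60% for the antimiR at 5 and 20 weeks, 0.943% for 20 against 5 weeks and 14.3% for diet in knockouts.

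Levels in the knockout set are given beside the unedited ones without a test, since the array medians of the sets differ and the labels describe the knockout rats apart from the others. The mean over the 10 fast genes was 9.43 (SD 0.59, n = 4) in ZS knockouts and 9.02 (SD 1.01, n = 6) in ZD knockouts, and between 7.40 and 7.82 in the 4 unedited groups, each with an SD of 1.27 or more. For calcium handling the means were 7.69 and 7.28 in knockouts and 5.73 to 6.01 in unedited groups. For energy and oxygen they were 10.39 and 9.35 against 7.60 to 8.05, and for the shared sarcomere 9.15 and 8.42 against 6.67 to 7.11. For slow genes they were 6.28 and 5.96 against 5.02 to 5.23. Smooth muscle had its group medians at 10.36 and 9.24 in knockouts and at 7.14 to 8.78 in unedited groups, while the epithelial medians lay at 12.65 and 12.60 against 12.51 to 12.66. Genotype, cohort and normalization cannot be told apart here.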

How the data were processed

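The authors deposited 1 table of log2 values. The submitters' processing notes name RMA and the Affymetrix Expression Console, and neither version is given in the sources used here. It holds 31099 probe sets on 30 arrays, of which 20826 carried 1 gene symbol in the platform annotation, 436 several, 9780 none that was used, and 57 were controls. Each of 14217 genes was read from its probe set with the highest mean; 9 members had more than 1.

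Groups came from the titles. limma 3.58.1 in R 4.3.3 was fitted on all 30 arrays with 1 coefficient per group and no filter, with Benjamini-Hochberg adjustment over all genes at 0.05. Slopes on Acta1 were fitted with group means as covariates, separately in unedited and knockout arrays. Correlations used values centred on group means and 100000 two-sided permutations within groups (SciPy 1.17.1), adjusted over 8 relations. The fits were tested on simulated data. Depth does not apply to arrays; the number of rats limits the precision.

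The members and lists were chosen with earlier results of these data known. Named in every comparison were Acta1, Ttn, Tnni2, Myh2, Tnni1, Myh7, Atp2a1, Ryr1, Ckm and Mb, each member past the threshold where 10 or fewer passed, and otherwise the member of each class with the smallest adjusted p; from other lists up to 4 genes past the threshold with the smallest adjusted p. Other named genes were chosen after their values were seen. Alternatives were probe set choice, array scaling, array weights, a filter on the dimmest 30%, trend and robust variance, the compared groups alone, a smooth muscle covariate, and each array left out in turn. Promoter sequences are RefSeq's.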

Additional observations from a re-analysis of the deposited data

Results flagged for a closer look

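Groups of 4 to 6 rats were screened for a single array whose gap to its nearest neighbour filled an unusual share of the group's range. Of the 90 groups of values screened 2 were flagged, where chance alone would flag about 1 in 20. The 2 flags are thus no more than chance alone would give. Tnni1, slow troponin I, was at 6.83 on array 4 of the 20-week antimiR group, with the other 4 rats between 5.15 and 5.49. Myh7, the slow myosin heavy chain, was at 2.74 on array 38 of the ZD knockouts, with the other 5 between 3.25 and 3.49, all close to the lowest values on the arrays.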

How the results depend on the processing

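The counts of members past the threshold were 0 in every comparison of unedited groups under all 20 settings run, those that left out each array in turn included. For diet in knockouts the count of 1 became 2 with only the groups compared (Myh1 and Tcap) and 0 with the smooth muscle covariate, which itself differed with diet; with each array left out it stayed at 1. For the difference of diet changes the count of 0 became 1, Pygm (-1.35, adjusted p = 0.0215), with the second-brightest probe set. Myh1 in knockouts was called in 17 of 20 settings, with changes between -0.48 and -0.22. No called change turned sign; of 4163 uncalled changes refitted, 519 turned sign and remained uncalled. The median change of the members ran from -0.71 to 0.32 for diet in unedited rats and from -0.87 to -0.37 in knockouts over the settings.

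The count of members that rose with Acta1 ran from 24 to 26 on unedited arrays and from 18 to 23 on knockout arrays with each array left out, lowest without array 39. The count of all genes ran from 115 to 148 and from 83 to 176, with 83 without array 36. With Ckm in place of Acta1 it was 26 and 23 of 33 members. The correlation of Acta1 with Myh11 on knockout arrays was 0.849 (adjusted permutation p = 0.00453) when values were not centred on group means, and this includes the diet difference of both genes. The causes of these shifts were not tested. No paired analysis was possible because each array number was taken as 1 rat and groups share no numbers.

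Residual SDs, pooled over unedited and knockout arrays, were above 1 log2 unit for most members. With 4 to 6 rats a group, changes below several-fold therefore lay within the intervals. Probe sets near the lowest values, such as those of Myh7 and Myl2 and, on unedited arrays, Tnnt1 and Tnnc1, carry little information.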
